A study of Rattus norvegicus with 84 samples.

Results

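Gpr17, Cspg4, Pdgfra, C1ql1, Olig1, Olig2, Sox10, Bmp4 and Enpp6 are genes of oligodendrocyte precursors and of the oligodendrocytes that newly form from them. These 9 genes were taken by name from the 15109 genes listed for all 3 hippocampal subregions, and all 9 were tested in every comparison. The rule uses no measured value, but the genes were chosen with earlier results of these data known. RNA was sequenced from male F344 rats, an inbred strain, that were middle-aged (12 months, 16 rats) or young (5 months, 12 rats). No allele or treatment is named, and each rat gave 1 library each from the dentate gyrus (DG), CA1 and CA3 of a single hemisphere, 84 libraries in all. The series title speaks of pattern separation in space, which means keeping alike places distinct in memory, but behaviour was not analysed here.

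Oligodendrocyte precursors are spread through the adult brain, divide slowly, and give rise to the oligodendrocytes that wrap axons in myelin. Platelet-derived growth factor acts on them through the receptor encoded by Pdgfra, while Cspg4 encodes the NG2 proteoglycan on their surface. A precursor that commits to maturing loses both, passes through a short stage marked by the receptor gene Gpr17 and then by Enpp6, and goes on to express myelin genes. Olig1, Olig2 and Sox10 encode transcription factors that stay on through much of this path, so their RNA comes from mature oligodendrocytes as well as from precursors. These stages are best described in mice.

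Values are normalized read counts, that is, a gene's reads divided by a factor for the depth of the library, and the libraries held 14.4 to 23.4 M reads. The animal numbers fall into 2 runs, which the labels do not call batches, and the ages hold separate blocks of numbers within each run. The first run has 10 rats of 12 months and 6 of 5 months, and the second has 6 of each age. In the first run the blocks join, with 3337 to 3342 at 5 months and 3343 to 3352 at 12 months. In the second a gap parts them, with 3593 to 3598 at 5 months and 3673 to 3678 at 12 months. Whatever that gap stands for cannot be told apart from age in the second run. Marker genes of the pyramidal cells of CA1 (4 of 4 tested) and CA3 (3 of 3) and of granule cells (3 of 3) passed the test as highest in their own subregion. Mitochondrially encoded genes took 7.96 ± 1.26% of DG reads, 11.5 ± 1.81% of CA1 reads and 9.04 ± 1.36% of CA3 reads at 12 months, against 7.06 ± 2.64%, 8.54 ± 2.43% and 7.59 ± 1.56% at 5 months (SD), and their part in the results was not tested. Within each subregion, every pair of libraries differed by more than counting noise.

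The regions upstream of the start site are shown for Gpr17 and Cspg4, which fell at 12 months in every subregion, and for Enpp6, for which no fall passed the test. Each is the 250 bases before the annotated start in RefSeq (GRCr8, a build that differs from the rn6 build named for the deposited files), written 5′ to 3′ on the strand of the gene. They lie at chr18:23857382-23857631 (minus strand) for Gpr17, chr8:66160692-66160941 (plus strand) for Cspg4 and chr16:52026729-52026978 (minus strand) for Enpp6. Capitals mark a SOX core match.
Gpr17: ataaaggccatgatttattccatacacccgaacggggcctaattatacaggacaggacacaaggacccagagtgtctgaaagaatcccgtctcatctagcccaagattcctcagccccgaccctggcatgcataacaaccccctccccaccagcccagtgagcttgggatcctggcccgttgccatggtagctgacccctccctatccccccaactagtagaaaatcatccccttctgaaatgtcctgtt
Cspg4: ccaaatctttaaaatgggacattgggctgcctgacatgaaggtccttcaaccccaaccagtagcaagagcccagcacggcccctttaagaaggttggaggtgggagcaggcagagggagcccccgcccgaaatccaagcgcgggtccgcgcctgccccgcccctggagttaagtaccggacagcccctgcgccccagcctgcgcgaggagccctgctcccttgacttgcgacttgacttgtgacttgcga
Enpp6: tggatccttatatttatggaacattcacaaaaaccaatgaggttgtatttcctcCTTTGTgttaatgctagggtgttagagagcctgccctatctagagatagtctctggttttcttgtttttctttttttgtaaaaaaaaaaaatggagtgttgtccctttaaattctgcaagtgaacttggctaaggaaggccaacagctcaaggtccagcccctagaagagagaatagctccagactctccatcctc

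The letters searched, on both strands, were a SOX core (ACAAAG or ACAATG, the short motif that factors such as SOX10 bind), an E-box (CANNTG, bound by factors of the class of OLIG1 and OLIG2) and the E-boxes CAGCTG and CATATG, which are themselves cases of CANNTG. Of 33469 rat promoters of this length, 25.3% held the SOX core, 65.5% an E-box and 15.2% one of the narrower E-boxes. Promoters were at hand for 6 of the 9 genes, namely Gpr17, Cspg4, Pdgfra, Olig2, Bmp4 and Enpp6. The windows of Gpr17, Cspg4 and Olig2 held none of these letters, and that of Pdgfra held 1 E-box. The window of Enpp6 held 1 SOX core, 196 bases before the start, and 1 E-box, while that of Bmp4 held 2 E-boxes, of which 1 was a CAGCTG.

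Gpr17 encodes a G protein-coupled receptor of committed precursors that holds back their maturation in mice. It was lower at 12 months in every subregion, and its estimated change was the largest of the 9 genes in each, although in the DG that of C1ql1 (log2 -0.69, against -0.73 for Gpr17) lay within its error. In the DG, Gpr17 had a lowest, median and highest value of 46.6, 106 and 177 normalized reads at 12 months, against 92.0, 204 and 240 at 5 months. In CA1, the values were 74.1, 121 and 183 at 12 months, against 172, 261 and 340 at 5 months. In CA3, they were 90.6, 156 and 210 at 12 months, against 200, 253 and 384 at 5 months. All 16 libraries of 12-month rats lay below the median of the 5-month rats in each subregion, although the ranges overlapped in each. The number below the lowest 5-month library was 6 of 16 for the DG, 14 for CA1 and 15 for CA3.

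**Figure D1:**
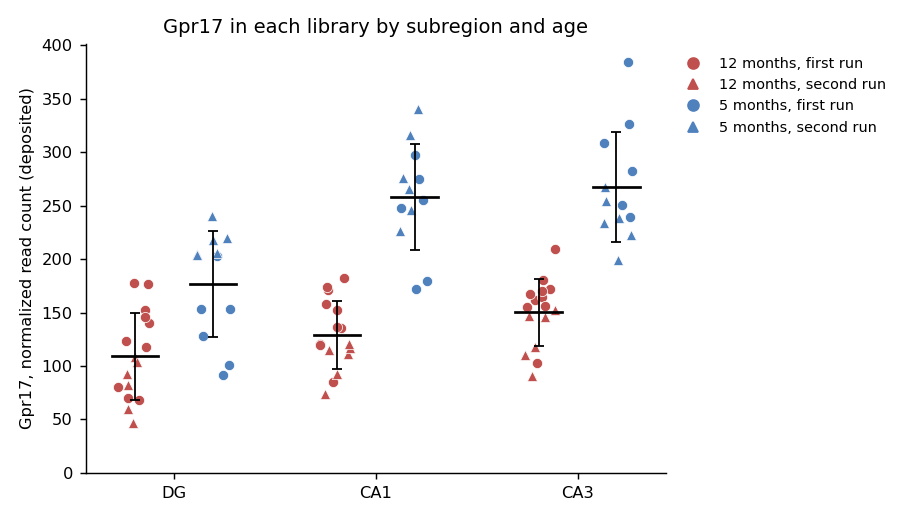
Normalized read count of Gpr17 (y axis) in each of the 84 libraries by subregion (x axis), with 12 months left of 5 months, circles for the first run of animal numbers and triangles for the second, and bars for the mean and SD. All 12-month libraries lie below the 5-month median of their subregion, and in the DG the 5-month libraries of the first run (92.0 to 203) lie below those of the second (204 to 240).

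The log2 change of Gpr17, 12 months minus 5 months, was -0.73 ± 0.19 in the DG (SE, limma, adjusted p = 0.00327), -1.01 ± 0.12 in CA1 (adjusted p = 1.43e-05) and -0.84 ± 0.11 in CA3 (adjusted p = 1.17e-05). The CA1 value had the 2nd smallest p of the 14685 genes tested there, and the CA3 value the 7th smallest of 14893. Over the mean of each rat's 3 subregions, Gpr17 fell by 44.9% (log2 -0.86 ± 0.10, adjusted p = 5.78e-07). In tissue of many cell types, fewer cells of a type and less RNA per cell cannot be told apart, here or for any gene below.

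The fall of Gpr17 in the DG was not the same in both runs of animal numbers. In the first run, DG values were 68.3, 132 and 177 (lowest, median and highest) at 12 months, against 92.0, 141 and 203 at 5 months. In the second run they were 46.6, 87.1 and 109 at 12 months, against 204, 212 and 240 at 5 months. The ages thus overlapped widely among first-run rats and not at all among second-run rats. The log2 change was -0.17 in the first run (adjusted p = 0.668) and -1.44 in the second (adjusted p = 1.52e-05), and the second minus the first was -1.27 ± 0.31 (adjusted p = 0.0136 by limma, in a test that called 6.15% of genes in the DG). Olig1 (-0.52 in the second run and -0.08 in the first, adjusted p of the difference 0.0436) and Sox10 (-0.59 and -0.07, adjusted p = 0.0353) also differed between runs in the DG. Of the 9 genes, these 3 passed that test in the DG. Age and the gap in animal numbers cannot be told apart in the second run.

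Within each run, Gpr17 passed the test as lower at 12 months in CA1 (adjusted p = 0.0219 for the first run) and in CA3. The CA1 change was -1.40 in the second run and -0.73 in the first (adjusted p of the difference 0.0859). In CA3 it was -0.90 in the second run and -0.86 in the first (adjusted p = 0.943), and the ranges of the ages did not overlap within either run. Averaged over the subregions, the change was -1.25 in the second run and -0.59 in the first (adjusted p = 1.49e-07 and 0.00394 within the runs), and the difference of -0.66 ± 0.15 passed the test (adjusted p = 0.00361, where 14.5% of genes did). No other of the 9 genes differed between runs on average. In CA1 and CA3, where 3.24% and 0.577% of genes differed between runs, none of the 9 did.

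Of the genes that mark dividing precursors, Cspg4 and C1ql1 fell and Pdgfra did not pass the test over all rats. Cspg4 had 456, 673 and 946 normalized reads (lowest, median and highest) in the DG at 12 months, against 636, 903 and 1275 at 5 months. In CA1 Cspg4 had 644, 870 and 1099 at 12 months, against 924, 1180 and 1349 at 5 months. In CA3 Cspg4 had 814, 946 and 1095 at 12 months, against 942, 1077 and 1192 at 5 months. The middle-aged libraries lay low in every subregion, with 13 of 16 below the 5-month median in the DG, all 16 in CA1 and 14 in CA3. The log2 changes were -0.44 ± 0.11 in the DG (limma, adjusted p = 0.00345), -0.37 ± 0.07 in CA1 (adjusted p = 0.0014) and -0.20 ± 0.05 in CA3 (adjusted p = 0.00763). Within the first run alone Cspg4 did not pass the test in the DG (-0.29, adjusted p = 0.302) or CA1 (-0.22, adjusted p = 0.143), and within the second it did not in CA3 (-0.15, adjusted p = 0.228).

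C1ql1 encodes a secreted protein related to complement C1q that binds the adhesion receptor Adgrb3, and it is made by precursors and by some neurons in mice. C1ql1 had 147, 196 and 309 normalized reads in the DG at 12 months, against 256, 306 and 468 at 5 months. In CA1 C1ql1 had 208, 283 and 410 at 12 months, against 282, 340 and 512 at 5 months. In CA3 C1ql1 had 240, 310 and 338 at 12 months, against 248, 351 and 457 at 5 months. In the DG 15 of the 16 middle-aged libraries lay below the lowest young one, against 8 in CA1 and 2 in CA3. The log2 change was -0.69 ± 0.11 in the DG (limma, adjusted p = 0.000119, 25th smallest p of 14526 genes), -0.35 ± 0.09 in CA1 (adjusted p = 0.00682) and -0.22 ± 0.07 in CA3 (adjusted p = 0.0223). The DG change was -0.86 for the second run and -0.57 for the first, a difference that did not pass the test (adjusted p = 0.433), though the first run alone did not pass either (adjusted p = 0.11). C1ql1 also did not pass in CA1 in the first run alone (-0.42, adjusted p = 0.0654) or in CA3 in the second (-0.14, adjusted p = 0.400).

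Pdgfra encodes the receptor through which platelet-derived growth factor keeps precursors dividing. It had 698, 936 and 1309 normalized reads in the DG at 12 months, against 757, 872 and 1130 at 5 months. In CA1 Pdgfra had 1024, 1208 and 1742 at 12 months, against 1054, 1316 and 1463 at 5 months. In CA3 Pdgfra had 1234, 1604 and 1742 at 12 months, against 1191, 1538 and 1940 at 5 months. The ranges of the ages overlapped widely in all 3 subregions. Over the average of the subregions the log2 difference was -0.02 with a 95% interval of -0.10 to 0.07 (limma, adjusted p = 0.794). In the second run alone the average was -0.10 (adjusted p = 0.0347), and in the first 0.03 (adjusted p = 0.741), a difference between runs that did not pass the test (adjusted p = 0.236). Pdgfra also passed as lower in CA1 in the second run alone (-0.19, adjusted p = 0.0168), where 5 of the 6 middle-aged libraries lay below the lowest young one, while the first run had -0.04 (adjusted p = 0.842).

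**Figure D2:**
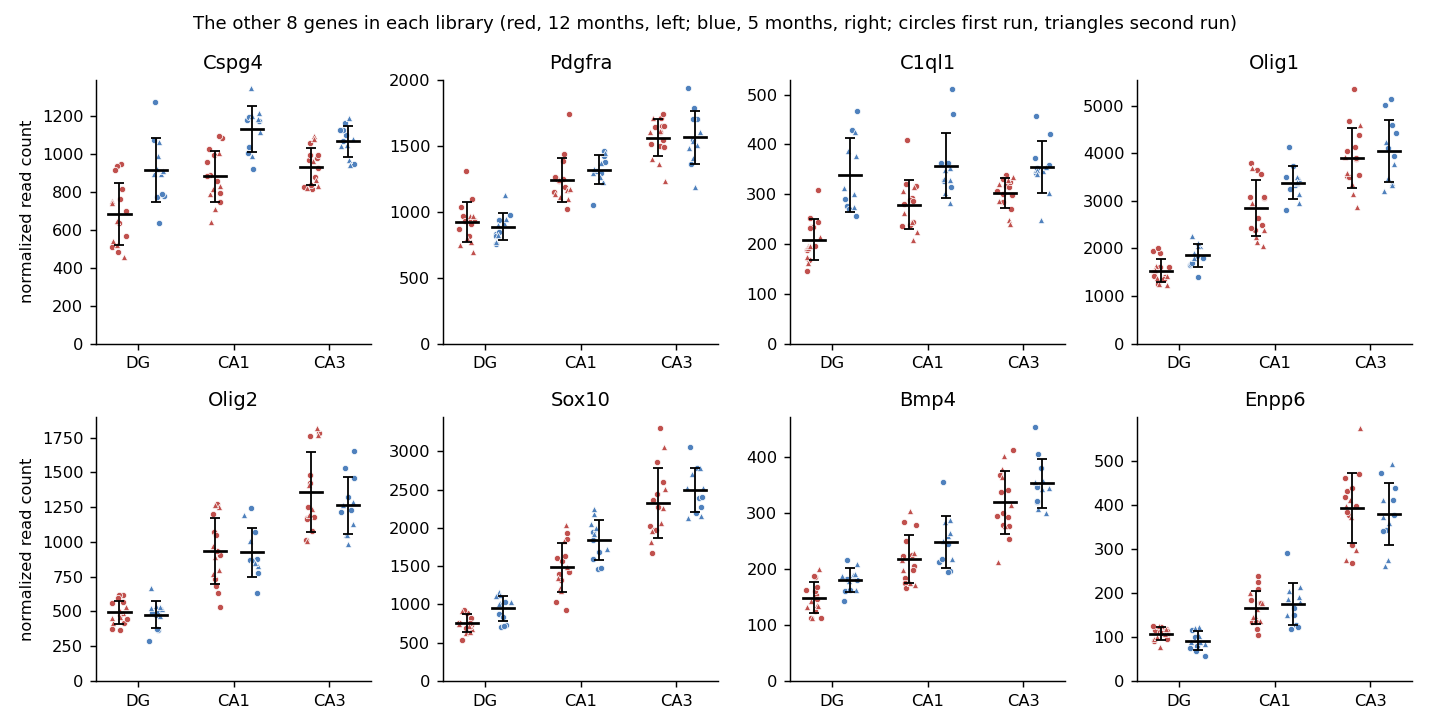
Normalized read count (y axis) of Cspg4, Pdgfra, C1ql1, Olig1, Olig2, Sox10, Bmp4 and Enpp6 in each library by subregion (x axis), with 12 months left of 5 months, circles for the first run, triangles for the second, and bars for the mean and SD. Cspg4 and C1ql1 lie lower at 12 months in all subregions, and the ages overlap widely for Pdgfra and Olig2. The means of Pdgfra, Olig1, Olig2, Sox10, Bmp4 and Enpp6 climb from the DG over CA1 to CA3 at both ages. Each subregion was scaled on its own in these values, so levels are only compared after the common scaling.

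Among the transcription factors, Olig1 and Sox10 fell in the DG and CA1 while Olig2 did not pass the test anywhere. Sox10, which turns on myelin genes in maturing cells, had 537, 747 and 933 normalized reads in the DG at 12 months, against 702, 1012 and 1163 at 5 months. In CA1 Sox10 had 929, 1453 and 2039 at 12 months, against 1464, 1881 and 2248 at 5 months. All 16 middle-aged libraries lay below the 5-month median in the DG and 14 in CA1. The log2 change of Sox10 was -0.32 ± 0.09 in the DG (limma, adjusted p = 0.0063), -0.33 ± 0.10 in CA1 (adjusted p = 0.0163) and -0.12 ± 0.08 in CA3 (adjusted p = 0.315). Neither the DG nor the CA1 value passed in the first run alone (adjusted p = 0.732 and 0.347).

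Olig1, a factor needed for precursors to mature, had 1239, 1465 and 2000 normalized reads in the DG at 12 months, against 1395, 1816 and 2258 at 5 months. In CA1 Olig1 had 2058, 2792 and 3802 at 12 months, against 2803, 3388 and 4133 at 5 months. The middle-aged libraries lay below the 5-month median in 13 of 16 cases in the DG and 12 of 16 in CA1, with wide overlap. The log2 change of Olig1 was -0.28 ± 0.08 in the DG (limma, adjusted p = 0.00531), -0.27 ± 0.09 in CA1 (adjusted p = 0.0267) and -0.06 ± 0.08 in CA3 (adjusted p = 0.664). In the first run alone neither the DG nor the CA1 value passed (adjusted p = 0.663 and 0.262).

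Olig2, the factor that specifies the lineage, had 365, 484 and 617 normalized reads in the DG at 12 months, against 285, 489 and 671 at 5 months. In CA1 Olig2 had 534, 919 and 1272 at 12 months, against 630, 872 and 1241 at 5 months. In CA3 Olig2 had 1008, 1246 and 1820 at 12 months, against 982, 1248 and 1654 at 5 months. The medians of the ages lay close together in each subregion. Averaged over the subregions its log2 difference was 0.05 with a 95% interval of -0.11 to 0.21 (limma, adjusted p = 0.633).

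Of the 2 genes of the committed and newly forming stage beside Gpr17, Bmp4 fell in the DG and Enpp6 fell in no subregion. Bmp4, a secreted signal that diverts precursors from the oligodendrocyte path in culture, had 112, 145 and 200 normalized reads in the DG at 12 months, against 143, 181 and 216 at 5 months. In CA1 Bmp4 had 166, 210 and 302 at 12 months, against 195, 247 and 355 at 5 months. In CA3 Bmp4 had 212, 306 and 412 at 12 months, against 300, 345 and 454 at 5 months. The middle-aged medians were the lower ones in all 3 subregions, with wide overlap. The log2 difference of Bmp4 was -0.29 ± 0.09 in the DG (limma, adjusted p = 0.0116), -0.20 ± 0.10 in CA1 (adjusted p = 0.142) and -0.16 ± 0.08 in CA3 (adjusted p = 0.171). Averaged over the subregions it was -0.22 ± 0.06 (adjusted p = 0.00454), but in the first run alone neither the average (adjusted p = 0.0923) nor the DG value (adjusted p = 0.336) passed.

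Enpp6 encodes a choline phosphodiesterase used in mice to mark oligodendrocytes in their first days. It had 76.1, 109 and 125 normalized reads in the DG at 12 months, against 55.8, 88.1 and 123 at 5 months. In CA1 Enpp6 had 105, 170 and 238 at 12 months, against 117, 172 and 292 at 5 months. In CA3 Enpp6 had 269, 398 and 574 at 12 months, against 262, 375 and 493 at 5 months. In the DG 15 of the 16 middle-aged libraries lay above the 5-month median, while CA1 and CA3 overlapped nearly in full. The DG difference of 0.26 ± 0.10 lay just outside the threshold (limma, adjusted p = 0.0508) and passed under 3 of 11 other settings, with an adjusted p of 0.0431 when the run was a term. The intervals (95%) were -0.32 to 0.21 in CA1 and -0.16 to 0.25 in CA3.

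Over the 9 genes, 6 fell in the DG (Gpr17, Cspg4, C1ql1, Olig1, Sox10 and Bmp4), where 18.5% of the 14526 genes tested fell, and 5 fell in CA1 (the same genes without Bmp4), where 12.8% of genes fell. In CA3 3 fell (Gpr17, Cspg4 and C1ql1), where 10.8% of genes did, and on average 6 fell, where 24.6% did. None of the 9 rose in any of these 4 comparisons, in which 18.5%, 12.4%, 10.9% and 25.4% of genes rose. Since the 9 were chosen with earlier results of these data known, these counts describe them and are not a test. The median log2 change of the 9 was -0.29 in the DG, -0.27 in CA1, -0.12 in CA3 and -0.22 on average, while the median of all genes tested lay between 0.0022 and 0.01. In the first run alone 0 of the 9 passed in the DG, where only 0.172% of all genes did, 1 in CA1 (Gpr17), where 3.19% did, and 3 on average (Gpr17, Cspg4 and C1ql1), where 18.4% did. In CA3, Gpr17 was the only one of the 9 to pass in the second run alone, where 16.5% of genes did. There the first run alone kept Gpr17, Cspg4 and C1ql1 (adjusted p = 0.00168, 0.0373 and 0.0195 by limma).

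**Figure D3:**
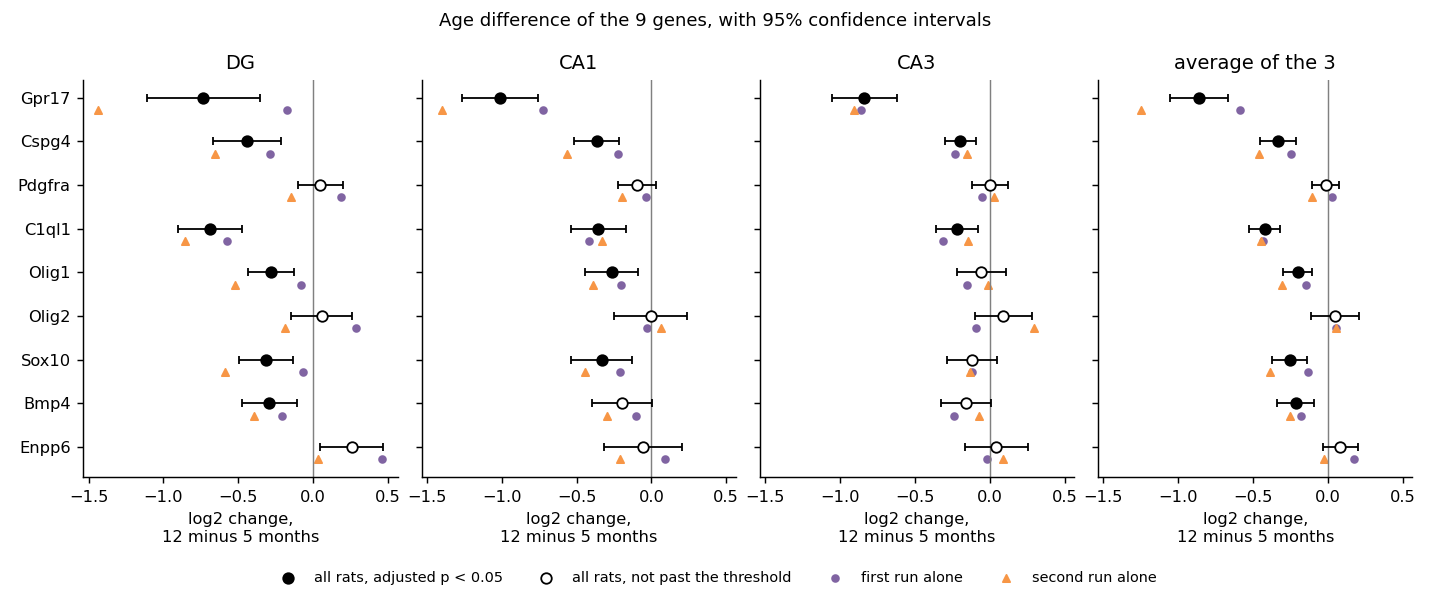
Log2 change, 12 months minus 5 months (x axis), of the 9 genes (y axis) in the DG, CA1, CA3 and the average of the 3, with 95% confidence intervals and filled circles where the adjusted p was under 0.05, and purple circles and orange triangles for the first and second run alone. Gpr17 lies farthest left in every panel, from -0.73 to -1.01, and its runs stand widest apart in the DG (-1.44 and -0.17).

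Gpr17 was also set against Pdgfra within each library, which leaves out the depth of the library. In the DG Gpr17 had 6.04, 12.1 and 17.1 reads per 100 reads of Pdgfra (lowest, median and highest) at 12 months, against 12.2, 20.8 and 26.8 at 5 months. In CA1 the ratio was 6.32, 10.4 and 13.9 at 12 months, against 12.7, 19.9 and 27.7 at 5 months. In CA3 the ratio was 6.89, 9.63 and 12.3 at 12 months, against 14.1, 16.0 and 22.6 at 5 months. The ages did not overlap in CA3, overlapped in few libraries of CA1, and overlapped in the DG. For the first run the DG medians were 12.9 at 12 months and 14.7 at 5 months, and for the second 9.85 and 24.1. Per 100 reads of Sox10, the medians of Gpr17 for the DG, CA1 and CA3 were 13.4, 9.58 and 6.34 at 12 months, against 19.5, 14.4 and 10.9 at 5 months. For the DG these medians were 15.4 and 16.3 in the first run, and 12.0 and 19.7 in the second. These ratios compare libraries and not the levels of the genes, since gene length was not used, and they were given no test of their own.

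**Figure D4:**
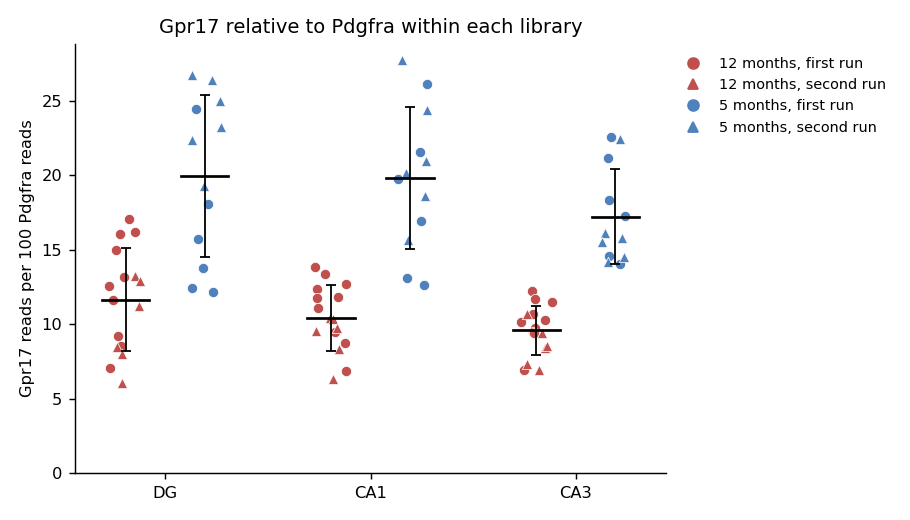
Gpr17 reads per 100 Pdgfra reads (y axis) in each library by subregion (x axis), with 12 months left of 5 months, circles for the first run, triangles for the second, and bars for the mean and SD. In CA3 the 12-month libraries (6.89 to 12.3) all lie below the 5-month libraries (14.1 to 22.6).

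The age change was compared between subregions within each rat. For Gpr17, the change in the DG minus that in CA1 was 0.28, with a 95% interval of -0.12 to 0.67 (limma, adjusted p = 0.506), in the DG minus CA3 it was 0.10, with an interval of -0.35 to 0.56 (adjusted p = 0.831), and in CA1 minus CA3 it was -0.17, with an interval of -0.46 to 0.11 (adjusted p = 0.696). Over all rats, the data thus did not order the subregions by the fall of Gpr17. The runs lay on opposite sides of 0, with a DG minus CA3 value of 0.69 in the first run alone and -0.53 in the second. That contrast of the runs was not tested. C1ql1 was the only one of the 9 to pass any of these tests, with a change in the DG minus that in CA3 of -0.47 ± 0.13 (adjusted p = 0.0458), in a comparison that called 2.73% of genes. That call was lost in 21 of the 28 fits that left out a rat, with the run as a term (adjusted p = 0.0514), and in the first run alone (-0.26, adjusted p = 0.643), and it was -0.71 in the second run (adjusted p = 0.0224). Between the DG and CA1, 0.607% of genes and 0 of the 9 passed. Between CA1 and CA3, 0.00% of genes passed by limma, with 1444 at an unadjusted p under 0.05, and 4 genes passed in a fit without the rat as a block.

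Levels across subregions were compared within rats after all 84 libraries were brought to 1 scale. All 9 genes were lowest in the DG, below CA1 (as 31.9% of all genes were, while 33.3% were above it) and below CA3 (as 35.7% were, while 34.4% were above it). Markers of other cells that are not neurons were also often lower in the DG. Below CA1 were 11 of 11 markers of pericytes and smooth muscle, 6 of 6 of microglia and 5 of 5 of endothelium. So were 7 of 9 of fibroblasts and 5 of 7 of astrocytes. Below CA3, in that order, were 3 of 11 (3 were above), 6 of 6, 2 of 5, 6 of 9 and 4 of 7. Of the 9 genes, Enpp6 climbed most from the DG over CA1 to CA3, with medians of 106, 174 and 377 normalized reads on the common scale. Sox10 had medians of 815, 1648 and 2297, Olig2 of 501, 903 and 1201, and Olig1 of 1685, 3208 and 3767. In all 28 rats the DG value was the lowest of the 3 for Pdgfra, Olig1, Olig2 and Sox10, and it was so in 27 rats for Bmp4 and Enpp6. For Gpr17, Cspg4 and C1ql1 this held in 19, 22 and 18 rats. The DG minus CA1 difference of C1ql1, -0.27 over all rats (limma, adjusted p = 0.000494), was -0.41 in the 12-month rats alone (adjusted p = 1.51e-05) but did not pass in the 5-month rats alone (-0.0898, adjusted p = 0.501) or in the second run alone (-0.18, adjusted p = 0.146).

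The log2 difference of the DG minus CA3 was -1.84 ± 0.09 for Enpp6 (limma, adjusted p = 1.85e-28), -1.43 ± 0.06 for Sox10 (adjusted p = 1.4e-29), -1.35 ± 0.06 for Olig2 (adjusted p = 6.85e-29) and -1.16 ± 0.06 for Olig1 (adjusted p = 1.93e-26). It was -0.95 ± 0.06 for Bmp4 (adjusted p = 2.94e-23) and -0.70 ± 0.04 for Pdgfra (adjusted p = 7.39e-23). The smallest differences were those of Gpr17 (-0.48 ± 0.09, adjusted p = 8.19e-06), Cspg4 (-0.29 ± 0.05, adjusted p = 2.27e-06) and C1ql1 (-0.26 ± 0.07, adjusted p = 0.00086). For C1ql1 the difference was -0.46 in the 12-month rats alone (adjusted p = 2.58e-06) and 0.00186 in the 5-month rats alone (adjusted p = 0.99), and it did not pass in the second run alone (-0.18, adjusted p = 0.139). Cspg4 did not pass in the 5-month rats alone either (-0.16, adjusted p = 0.0695).

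Between CA1 and CA3 the 9 genes fell into groups. The log2 difference of CA1 minus CA3 was below 0 and passed the test for 6 of them (as for 30.2% of genes, while 29.8% passed above 0), at -1.11 ± 0.09 for Enpp6, -0.48 ± 0.06 for Sox10, -0.45 ± 0.06 for Bmp4, -0.43 ± 0.06 for Olig2, -0.29 ± 0.06 for Olig1 and -0.21 ± 0.04 for Pdgfra. It did not pass for Gpr17 (-0.07, 95% interval -0.26 to 0.12, limma, adjusted p = 0.537), Cspg4 (0.07, interval -0.04 to 0.17, adjusted p = 0.266) or C1ql1 (0.01, interval -0.13 to 0.15, adjusted p = 0.87). Those 3 are also the ones that fell with age in all 3 subregions. In the 5-month rats alone, Pdgfra (adjusted p = 0.0568) and Olig1 (adjusted p = 0.0852) did not pass. Myelin genes of mature oligodendrocytes followed the same order of subregions, with 20 of 20 lower in the DG than in CA1 (median log2 difference -1.14), 20 of 20 lower in the DG than in CA3 (-1.81) and 20 of 20 lower in CA1 than in CA3 (-0.64). The order held less fully for other genes of precursors (19 tested) and of newly forming oligodendrocytes (16 tested). In the DG, 12 and 12 passed as below CA1 (31.9% of all genes), and 4 and 3 as above it (33.3%). Against CA3, 13 and 9 were below in the DG (35.7%), and 2 and 4 above (34.4%). In CA1, 11 and 8 were below CA3 (30.2%), and 1 and 4 above (29.8%).

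**Figure D5:**
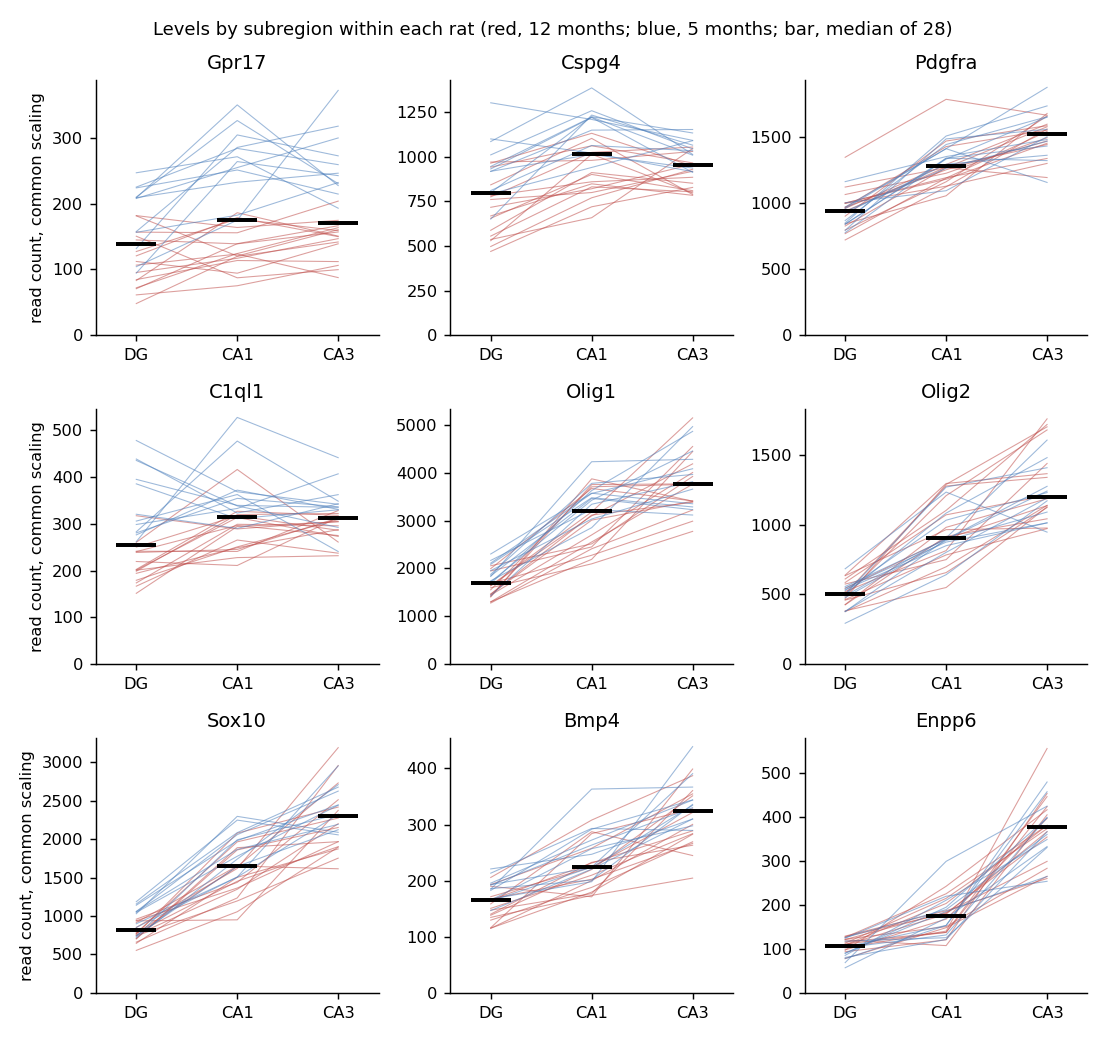
Normalized read count on the common scale (y axis) of the 9 genes in the DG, CA1 and CA3 (x axis), with 1 line per rat (red for 12 months, blue for 5 months) and bars for the median of the 28 rats. The lines of Enpp6 climb steeply from a median of 106 in the DG to 377 in CA3, while those of Gpr17, Cspg4 and C1ql1 run flat between CA1 and CA3.

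Other genes known from precursors did not all move the same way. Of 19 tested, 9 fell and 3 rose on the average of the subregions, against the 24.6% and 25.4% of all genes, and their median log2 change was -0.10. Traf4, an adaptor protein, changed by -0.30 ± 0.06 (limma, adjusted p = 0.000106), Dscam, an adhesion molecule also of neurons, by -0.24 ± 0.04 (adjusted p = 3.05e-05), and Cacng4, an auxiliary protein of AMPA receptors also of neurons, by -0.20 ± 0.03 (adjusted p = 2.4e-05). Of 16 genes of newly forming oligodendrocytes, 6 fell and 0 rose, against the same shares of all genes, with a median of -0.12. Those named by their p were Tmem163, a zinc transporter (-0.43 ± 0.10, adjusted p = 0.000626), Zfp488, a transcription factor of the lineage (-0.36 ± 0.09, adjusted p = 0.00122), Nfasc, which anchors the junction of axon and myelin (-0.22 ± 0.04, adjusted p = 2.27e-05), and Fyn, a kinase of myelination (-0.11 ± 0.02, adjusted p = 5.09e-05). Nfasc and Fyn are also expressed in neurons. By subregion these lists were less even. In the DG, 4 of the 19 precursor genes fell and 4 rose, and 4 of the 16 newly forming genes fell and 1 rose. There, 18.5% of all genes fell and 18.5% rose. In CA1 7 and 5 fell and 0 rose, where 12.8% of genes fell and 12.4% rose. In CA3 4 and 3 fell and 0 rose, where 10.8% fell and 10.9% rose.

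Of 20 myelin genes, 8 fell and 3 rose on average, where 24.6% of all genes fell and 25.4% rose, with a median of -0.07. Cldn11, a tight junction protein of myelin (-0.31 ± 0.06, adjusted p = 0.000202 by limma), and Fa2h, an enzyme of myelin lipids (-0.29 ± 0.06, adjusted p = 0.000357), fell, while Aspa, which breaks down N-acetylaspartate (0.54 ± 0.11, adjusted p = 0.000244), and Ermn, a cytoskeletal protein of late oligodendrocytes (0.30 ± 0.07, adjusted p = 0.000791), rose. Of 6 tested genes of dividing cells, 1 fell (Ccnb1, -0.25 ± 0.09, adjusted p = 0.0301) and 1 rose (Pcna, 0.18 ± 0.05, adjusted p = 0.00601). Top2a, also of dividing cells, had a value of -0.33 ± 0.14 that did not pass (adjusted p = 0.0514). By subregion, 1 of the 20 myelin genes fell and 5 rose in the DG, where 18.5% of all genes fell and 18.5% rose. In CA1 5 of them fell and 1 rose (12.8% and 12.4% of genes), and in CA3 1 fell and 2 rose (10.8% and 10.9%).

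Of the 5 other genes of platelet-derived growth factor and its receptors, Pdgfb (-0.31 ± 0.05, adjusted p = 4.07e-05 by limma) and the receptor Pdgfrb (-0.15 ± 0.05, adjusted p = 0.0255) fell, and the ligands Pdgfd (0.41 ± 0.12, adjusted p = 0.00449) and Pdgfc (0.19 ± 0.07, adjusted p = 0.0216) rose. Of 22 genes of bone morphogenetic protein signalling, 6 fell and 5 rose, close to the 24.6% and 25.4% of all genes. The 4 with the smallest p were Id3, a target of the pathway (-0.33 ± 0.07, adjusted p = 0.00022), Smad7, an inhibitor (-0.24 ± 0.05, adjusted p = 0.000346), Smad1, a transducer (-0.20 ± 0.05, adjusted p = 0.000953), and Nog, which encodes the secreted antagonist noggin (-0.29 ± 0.07, adjusted p = 0.000989). Of the relatives of C1ql1 and their receptor, C1ql3 fell (-0.30 ± 0.10, adjusted p = 0.0104), C1ql2 was at -0.18 ± 0.21 (adjusted p = 0.495) and Adgrb3 at 0.02 ± 0.03 (adjusted p = 0.613).

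Cspg4 is also known from pericytes, the cells on capillary walls, and Pdgfra from fibroblasts of the brain's covering, so markers of these cells were measured beside them. Of 11 pericyte and smooth muscle markers, 3 fell on average and 1 rose, where 24.6% of all genes fell and 25.4% rose. Notch3, a receptor of these cells, changed by -0.62 ± 0.07 (limma, adjusted p = 3.34e-07), and Rgs5, a regulator of G protein signalling in pericytes, by 0.22 ± 0.09 (adjusted p = 0.0355). Their summed level had a range of 1888 to 3122 normalized reads in the DG, 2687 to 3985 in CA1 and 2268 to 3223 in CA3 at 12 months, against 2092 to 3325, 3084 to 4087 and 2593 to 3229 at 5 months. Of 9 fibroblast markers, 6 fell and 1 rose, against the same shares of all genes, led by the collagen genes Col1a2 (-0.98 ± 0.14, adjusted p = 6.56e-06) and Col1a1 (-0.79 ± 0.10, adjusted p = 4.23e-06). Their summed level had a range of 294 to 598 in the DG, 679 to 1147 in CA1 and 633 to 2550 in CA3 at 12 months, against 429 to 1232, 749 to 1082 and 756 to 1409 at 5 months. None of either list was at 0 in every library, and the part of these cells in the changes of Cspg4 and Pdgfra was not tested.

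Since all 9 genes were lower in the DG than in CA1 or CA3, markers of those subregions were also measured in the DG samples. The 4 CA1 markers summed to 2200 to 13288 normalized reads in the DG at 12 months, with a median of 5237, against 2949 to 17719, with a median of 6788, at 5 months. The median log2 change of these markers was -0.52 in the DG, with 1 of 4 past the test, -0.25 in CA1 itself, with 2 of 4, and -0.21 in CA3, with 0 of 4. Of the 3 CA3 markers, 2 fell in the DG, with a median of -0.16. The part of these values in the falls of the 9 genes was not tested. On the average of the subregions, microglial markers rose in 3 of 6 cases and none fell, astrocyte markers rose in 2 and fell in 2 of 7 cases, and endothelial markers fell in 2 of 5, while 25.4% of all genes rose and 24.6% fell.

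Within an age and a run, libraries high in one of the 9 genes were often high in others. Pearson's r was taken over the 28 libraries of a subregion, on log2 values less the mean of their age and run, and averaged over the 3 subregions. It is a description, since the points share the depth and the dissection of a library. The closest pair was Olig1 and Sox10 (0.84), followed by Olig2 and Sox10 (0.65), and the least alike were Pdgfra and C1ql1 (-0.05). Gpr17 was most like Cspg4 (0.62), then Olig1 (0.49), Bmp4 (0.46), C1ql1 (0.46) and Sox10 (0.42), and less like Pdgfra (0.29), Enpp6 (0.27) and Olig2 (0.22). Among Cspg4, Olig1, Bmp4, C1ql1 and Sox10, r with Gpr17 was 0.58 to 0.77 in the DG. In CA1 it was lower, at 0.19 to 0.45, and in CA3 it was 0.45 to 0.65.

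Over all 14290 other genes, Cspg4 ranked 13th in its likeness to Gpr17. Olig1 ranked 230th, Bmp4 316th, C1ql1 318th, Sox10 593rd, Pdgfra 2038th, Enpp6 2349th and Olig2 3037th. The 8 genes most like Gpr17 were Fam53b (0.69), Ppp1r16b (0.68), Nacc2 (0.68), Adgrg1 (0.66), Pcsk6 (0.64), Tppp (0.64), Galnt2 (0.64) and Agap1 (0.63). Adgrg1 encodes an adhesion receptor of precursors and Tppp a protein of oligodendrocyte microtubules. None of the 8 is on the lists of precursor, newly forming or myelin genes used here, and the cells that express them were not tested. All 8 were also lower at 12 months on the average of the subregions, where 24.6% of all genes fell, from -0.12 for Agap1 (limma, adjusted p = 0.00676) and Galnt2 (adjusted p = 0.000364) to -0.37 for Nacc2 (adjusted p = 2.12e-05).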

How the data were processed

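Per the labels' protocols, polyA RNA of 84 hippocampal subregion samples was cut with RNase III before Ion Torrent libraries were prepared. Tools named in the submitters' processing notes are Partek, STAR 2.5.3a and DESeq2 3.5, with build rn6, without order or settings. For the gene annotation and the use of strand, the sources used here give no answer. The deposited values are a signal, counts that the authors divided by 1 size factor per library, in 1 table per subregion, and whole reads were recovered within 0.1 of a whole number for 100% of values up to 1000 reads. For CA3, 1 column is headed by an animal number alone and was taken as that rat's CA3 library.

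Tests were run on log2(value + 1), for genes that reached 10 or more in 12 or more of a subregion's 28 libraries, with limma 3.58.1 in R 4.3.3 (2-sided, Benjamini-Hochberg over all genes tested, threshold 0.05). Fold changes are on that scale, which understates the change of low genes. For the average over subregions, the 3 log2 values of each rat were averaged first. Differences of the age change were taken within a rat, paired by the animal number in the titles. Subregions were compared with the rat as a block after a common TMM scaling. Every value of the 9 genes rests on at least 58 reads, and libraries held 14.4 to 23.4 M.

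The 9 genes and all lists were chosen with earlier results of these data known. The text names the 9 genes, up to 4 genes of each other list with the smallest p for the average (not all are printed), and the 8 genes most like Gpr17. The alternatives were other pseudocounts, filters and scalings, the run of animal numbers as a term, each run alone, each age alone, count models on the recovered reads (edgeR 4.0.16, DESeq2 1.42.0), and leaving out each rat. The test of the difference between runs was added after the data were seen. The fitting steps were tested on simulated data.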

Additional observations from a re-analysis of the deposited data

Results flagged for a closer look

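C1ql1 differed in its age change between subregions: the log2 change in the DG minus that in CA3, taken within each rat, was -0.47 (-0.69 in the DG and -0.22 in CA3, limma, adjusted p = 0.0458, where 2.73% of genes passed). With the subregions not paired within rats the adjusted p was 0.0477. Without any rat in turn the value ranged from -0.54 to -0.42, and the call was kept in 7 of 28 such fits.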

How the results depend on the processing

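Gpr17 kept its direction and its call in CA1, CA3 and on average under all settings run, and in the DG under all but the first run alone (-0.17). The counts of genes passing for age in the first run alone were 25 in the DG, 468 in CA1, 719 in CA3 and 2628 on average, with 0, 1 and 3 of the 9 genes in the DG, CA1 and on average. In CA3 the second run alone left 1. Without any rat in turn, 6 to 7 of the 9 passed in the DG (the further one being Enpp6), and 5, 3 and 6 in CA1, CA3 and on average.

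For the DG minus CA1 the count of genes was 8 with no replicate block, 165 at a minimum of 50, 264 with the run as a term, 1 within the first run, 19 within the second, and 17 to 374 without any rat in turn. For the DG minus CA3 it was 171 with no block, 1 within the first run, 757 within the second, and 115 to 896 without any rat, and the count of the 9 genes was 0 with the run as a term, 0 within the first run, 2 within the second and 0 to 1 without any rat. For CA1 minus CA3 it was 4 with no block, 2 at a pseudocount of 5, 1 at a minimum of 50, 31 with the run as a term, 57 in the first run and 0 to 20 without any rat. The block changed no call of the 9 genes. The cause of these shifts was not tested.

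Values that changed sign were all of differences that did not pass, except C1ql1 in the DG minus CA3 (0.00186 in 5-month rats alone). For age in the DG these were, in the second run alone, Pdgfra (-0.15) and Olig2 (-0.19). In CA1 they were Olig2 with the run as a term (0.0097), in the second run (0.0626), with edgeR (0.0225) and with DESeq2 (0.0179), and Enpp6 in the first run (0.0876). In CA3 they were Pdgfra with the run as a term (-0.0162), in the first run (-0.0539), with edgeR (-0.0029) and with DESeq2 (-0.0021), and, in the first run, Olig2 (-0.0920) and Enpp6 (-0.0145). On average they were Pdgfra in the first run (0.0306) and Enpp6 in the second (-0.0289). Differences of the age change of Gpr17 became -0.0377 for the DG minus CA1 and -0.53 for the DG minus CA3 in the second run, and 0.14 for CA1 minus CA3 in the first. For CA1 minus CA3 levels, Gpr17 became 0.0287 in 5-month rats and 0.0651 in the second run, Cspg4 -0.0164 with the deposited scaling and -0.0051 in 12-month rats, and C1ql1 -0.0693 with the deposited scaling and -0.0433 in 12-month rats. Without any rat in turn, signs changed for Olig2 in the DG (-0.0081 to 0.10) and CA1 (-0.0528 to 0.0459), Enpp6 in CA1 (-0.104 to 0.0146) and CA3 (-0.0021 to 0.0808), Pdgfra in CA3 (-0.0318 to 0.0322) and Gpr17 in the DG minus CA3 (-0.0122 to 0.186).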
